A study of Homo sapiens with 9 samples.

Results

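Metallothionein RNA was followed in the hepatocellular carcinoma (HCC) cell line MHCC97L and in 2 drug-resistant lines made from it. The members were the rows of the deposited tables listed as MT1A, MT1E, MT1F, MT1G, MT1H, MT1M, MT1X and MT2A, 8 genes of 20030. MHCC97L was grown without drug. MHCC97L-Src was made resistant to 4 µmol/L saracatinib, an inhibitor of the kinase SRC, by growth in rising concentrations, and MHCC97L-Oxa was made resistant to 2 µmol/L oxaliplatin, a platinum drug that binds DNA. RNA of each line was sequenced in 3 libraries, 9 in all. The sources used here do not say whether drug was present when RNA was taken, or whether each resistant line was a single clone, and each resistance is represented by 1 line. The study's text describes the libraries of a line as independent experiments, so p-values measure the spread between those libraries and not between separately derived lines.

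Metallothioneins are short, cysteine-rich proteins of the cytosol and nucleus that bind zinc and copper through thiol groups and can also bind cadmium, mercury and platinum. Their genes are classically switched on by zinc and other metals through MTF1, a zinc finger transcription factor that binds metal response elements in their promoters, and several also respond to glucocorticoids and oxidants. Liver is a main site of metallothionein synthesis, where the proteins store zinc and copper.

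The libraries held 16970486 to 18209213 counted reads. The smallest amount treated as detectable, 3 counts, came to 0.165 to 0.177 CPM (counts scaled to library size). The keratin genes KRT8 and KRT18, typical of liver epithelial cells and their tumours, had at least 22160 counts in every library. The epithelial genes EPCAM (0 to 2 counts), KRT19 (0 to 11) and CDH1 (2 to 19) had few counts, and the hepatocyte genes ALB, AFP and TTR had 0 counts in all 9. The other hepatocyte and HCC genes had few counts, SERPINA1 1 to 31, HNF4A 2 to 13, APOA1 0 to 4 and GPC3 0 to 1. The sum of these 7 genes was 0.258 to 0.583 TMM-normalized CPM in MHCC97L. It was 1.10 to 1.72 in MHCC97L-Src and 1.28 to 2.16 in MHCC97L-Oxa. Of the markers of other cell types, the leukocyte genes PTPRC and CD3E had 0 counts throughout, and the macrophage and lysosome gene CD68 had 862 to 2608. The summed level of the 3 leukocyte markers, which is that of CD68, was 44.4 to 79.5 TMM-normalized CPM in MHCC97L and 141 to 145 in MHCC97L-Oxa. The sum of 3 endothelial markers, mostly CDH5, was 2.23 to 2.68 in MHCC97L and 12.2 to 15.1 in MHCC97L-Src. The sum of 4 fibroblast or stellate cell markers, mostly COL1A1, was 84.1 to 115 in MHCC97L, 79.6 to 91.4 in MHCC97L-Src and 116 to 126 in MHCC97L-Oxa. The part of these markers in the results was not tested. MHCC97L replicate 1 deviated most. Across genes, its deviation from the mean library correlated with GC content with a rho of -0.79, against -0.26 to 0.70 in the other 8 libraries. The rho of 0.70 was that of MHCC97L-Src replicate 2. GC content and length explained 66.7% of the variance of the deviation in MHCC97L replicate 1 and 48.2% in MHCC97L-Src replicate 2. Results are also given without MHCC97L replicate 1.

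The 8 members lie together on chromosome 16 of GRCh38 within 75998 bases, chr16:56608199-56684196 in GENCODE release 29. In chromosomal order they are MT2A, MT1E, MT1M, MT1A, MT1F, MT1G, MT1H and MT1X. MT1G lies on the - strand and the others on the + strand. Each has 3 exons and a coding sequence of 186 bases for 61 residues. MT2A spans 56608199 to 56609497, MT1E 56625475 to 56627112, MT1F 56657694 to 56660698, and MT1X 56682424 to 56684196, where it overlaps the annotated gene AC026461.1.

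The coding sequences of the 4 members with RNA in these cells are shown because they are so alike that reads could be shared between genes. Each was read from the GENCODE transcript, and capitals in MT1E, MT1X and MT1F mark the bases that differ from MT2A.
MT2A: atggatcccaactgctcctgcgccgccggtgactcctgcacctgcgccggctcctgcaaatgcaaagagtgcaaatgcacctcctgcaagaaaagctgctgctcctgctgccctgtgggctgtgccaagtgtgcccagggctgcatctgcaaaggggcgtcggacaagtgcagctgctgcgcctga
MT1E: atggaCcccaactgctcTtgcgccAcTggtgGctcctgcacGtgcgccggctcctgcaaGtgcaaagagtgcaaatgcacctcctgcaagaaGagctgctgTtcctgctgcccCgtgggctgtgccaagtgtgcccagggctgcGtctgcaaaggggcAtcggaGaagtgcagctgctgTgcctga
MT1X: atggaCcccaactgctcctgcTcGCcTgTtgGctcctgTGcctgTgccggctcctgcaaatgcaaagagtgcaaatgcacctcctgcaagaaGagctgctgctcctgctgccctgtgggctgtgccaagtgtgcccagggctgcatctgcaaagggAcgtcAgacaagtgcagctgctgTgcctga
MT1F: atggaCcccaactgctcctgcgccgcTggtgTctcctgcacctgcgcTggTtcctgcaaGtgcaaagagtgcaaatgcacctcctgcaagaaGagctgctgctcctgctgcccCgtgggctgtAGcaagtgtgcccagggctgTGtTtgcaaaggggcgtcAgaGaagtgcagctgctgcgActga
MT1E and MT1X each differed from MT2A at 14 of the 186 bases, an identity of 92.5%, and MT1F differed at 16. MT1F and MT1X, the most unlike pair of the 8, differed at 21 bases. No stretch of 125 bases, the shorter read length given in the labels, was identical between 2 members' transcripts. In MT2A, 27 of 662 such stretches came within 2 mismatches of another metallothionein transcript, and in MT1E, MT1F and MT1X none did. The counting program and its treatment of reads with several alignments are not given in the sources used here, so the family total is reported beside each member.

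RefSeq start regions of 3 members, MT2A, MT1X and MT1H, were at hand (build GRCh38.p14, + strand, the 250 bases before the RefSeq start). They are shown because no other member had an entry, and not for the size of their differences between the lines. MT2A and MT1X had RNA in these cells, whereas MT1H had no reads. Capitals mark matches to the core of the metal response element, TGCACNC or TGCGCNC, on either strand. MT2A covers chr16:56608334-56608583, MT1X chr16:56682220-56682469 and MT1H chr16:56669564-56669813.
MT2A: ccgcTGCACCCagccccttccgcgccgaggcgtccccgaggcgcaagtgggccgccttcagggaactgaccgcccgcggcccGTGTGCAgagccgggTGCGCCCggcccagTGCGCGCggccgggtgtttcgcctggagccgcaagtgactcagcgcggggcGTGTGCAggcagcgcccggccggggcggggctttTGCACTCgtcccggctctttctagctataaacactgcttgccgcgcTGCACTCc
MT1X: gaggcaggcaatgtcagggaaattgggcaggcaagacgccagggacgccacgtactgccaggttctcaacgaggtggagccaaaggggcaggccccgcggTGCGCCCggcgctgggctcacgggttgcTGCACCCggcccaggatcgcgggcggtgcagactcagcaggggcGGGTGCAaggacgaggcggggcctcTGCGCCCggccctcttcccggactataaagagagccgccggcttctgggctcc
MT1H: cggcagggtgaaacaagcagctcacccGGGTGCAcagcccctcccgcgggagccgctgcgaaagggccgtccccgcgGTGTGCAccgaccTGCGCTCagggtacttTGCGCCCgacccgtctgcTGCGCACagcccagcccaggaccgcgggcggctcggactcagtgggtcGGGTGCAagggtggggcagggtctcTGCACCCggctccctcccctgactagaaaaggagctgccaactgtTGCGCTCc
MT2A held 7 matches, MT1X 4 and MT1H 8. At least 1 match was present in 24.8% of the 35116 start regions of the same length in the table, at least 4 in 0.370%, at least 7 in 0.0313% and at least 8 in 0.0171%. These windows are rich in G and C, and among 2678 regions of 70.0 to 73.2% GC the shares were 42.2%, 0.822%, 0.0747% and 0.0373%. MT1X and MT1H had matches at the same distances of 78 and 53 bases before the start. A match is a likeness of letters, and binding of MTF1 was not measured. GENCODE begins MT2A and MT1X upstream of the RefSeq starts, so the place of the window relative to the RNA depends on the annotation. MT1A, MT1E, MT1F, MT1G and MT1M had no entry.

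**Figure D1:**
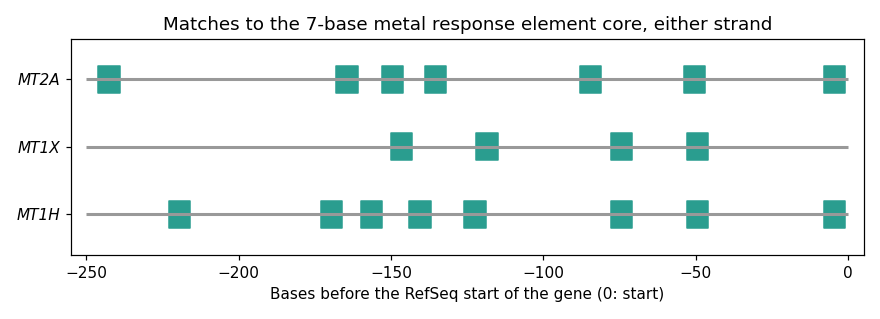
Positions of matches to the metal response element core in the 250 bases before the RefSeq start of MT2A, MT1X and MT1H. The horizontal axis gives bases before the start, and each block is 1 match of 7 bases on either strand, 7 in MT2A, 4 in MT1X and 8 in MT1H.

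Of the 8 members, 4 had RNA in these cells and 4 did not at this depth. MT1A, MT1G and MT1H had 0 counts in all 9 libraries. MT1M had 1 count, in MHCC97L replicate 2. A count of 0 allows a level of up to 3 counts, or 0.165 to 0.177 CPM per library, and in either resistant line none of these 4 members exceeded that limit. Among the other 4 metallothionein rows of the table, MT3, the member best known from brain, had 0 to 5 counts per library, MT1B had 1 count in all, and MT4, a squamous epithelial member, and MT1HL1 had 0. MT1G and MT1M, which are expressed in normal liver, were thus at or under the detection limit, whereas the widely expressed MT2A, MT1E and MT1X were abundant.

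MT2A was the most abundant member. Its counts were 5658, 6540 and 7411 in MHCC97L. MHCC97L-Src had similar counts of 5751, 6803 and 5935, and MHCC97L-Oxa higher ones of 9927, 11060 and 11911. By FPKM (fragments scaled to transcript length and library size, as deposited), MT2A was the 8th to 28th highest gene of a library. The counts of MT1E were 2248, 3532 and 3716 in MHCC97L. They were 2721, 3505 and 3196 for MHCC97L-Src, and 3044, 3023 and 3523 for MHCC97L-Oxa. These values overlapped among all 3 lines.

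For MT1X, 807, 1082 and 1080 reads were counted in MHCC97L. The counts of MHCC97L-Src were 867, 766 and 851, but those of MHCC97L-Oxa reached 2451, 2412 and 2694. All 3 MHCC97L-Oxa libraries were above every other library. MT1F was the lowest detected member, with 41, 47 and 39 reads counted in MHCC97L. MHCC97L-Src had 108, 133 and 130, and MHCC97L-Oxa 201, 187 and 185. For MT1F the 3 lines did not overlap, with MHCC97L lowest and MHCC97L-Oxa highest. The share of all genes whose lines do not overlap was not determined, so here and below a lack of overlap is only a description.

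Per length, the order of the members depended on the scale. On the deposited FPKM scale MHCC97L had 2079 ± 212 (SD, n = 3) for MT2A, 351 ± 44.5 for MT1X, 90.2 ± 27.1 for MT1E and 3.33 ± 0.423 for MT1F. On the scale of TMM-normalized CPM per kilobase of the matched GENCODE transcript, MHCC97L had 460 ± 79.9 for MT2A, 250 ± 74.3 for MT1E, 122 ± 25.9 for MT1X and 3.39 ± 0.502 for MT1F. For MT1F the length used was that of another transcript of 690 bases, whereas the matched one has 416. MT2A came first and MT1F last on both, whereas MT1E and MT1X changed places. The transcript length at which counts and FPKM would agree differed between lines for MT1F. It was 617 to 907 bases in MHCC97L, 745 to 1422 in MHCC97L-Src and 960 to 1122 in MHCC97L-Oxa. This length was 152 to 180 bases for MT1X and 172 to 183 for MT2A, but 1454 to 2132 for MT1E, whose matched transcript has 704. Levels of MT1E and MT1X therefore cannot be ranked, and comparisons between lines were made within 1 gene on the counts. In MHCC97L-Oxa the per-kilobase values of MT1X, 290 to 334, and MT1E, 232 to 279, lay closer, and in MHCC97L-Src those of MT1E were 229 to 325 and those of MT1X 104 to 114.

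**Figure D2:**
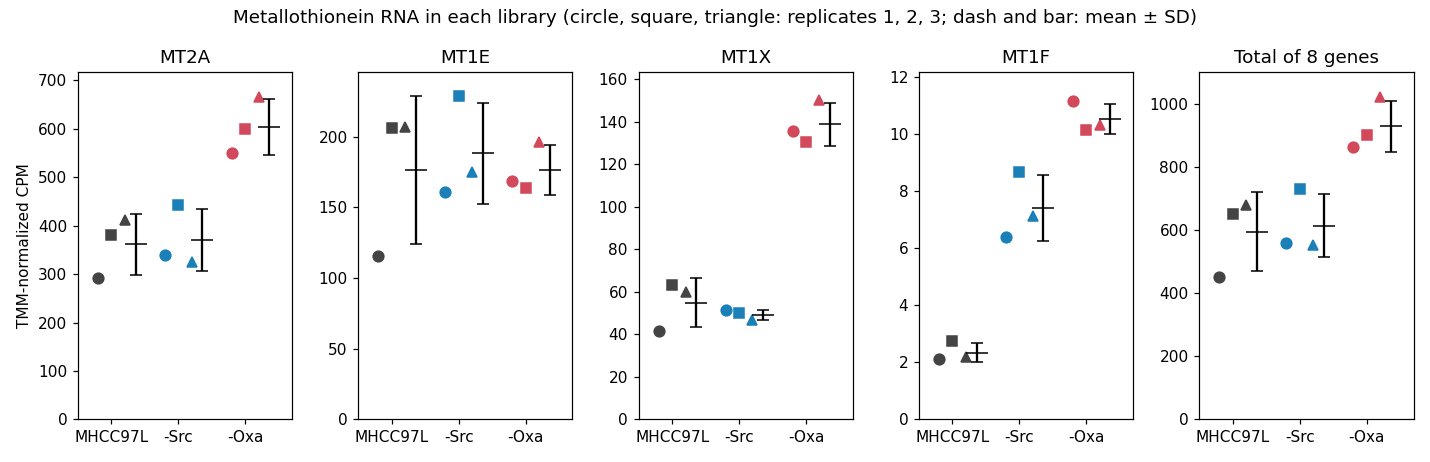
TMM-normalized CPM (vertical axes, each from 0) of MT2A, MT1E, MT1X, MT1F and the sum of the 8 members in MHCC97L, MHCC97L-Src (-Src) and MHCC97L-Oxa (-Oxa). Symbols are single libraries, and the dash and bar are the mean and SD of 3; MT1X lay between 131 and 150 in MHCC97L-Oxa and between 41.6 and 63.1 in the other 6 libraries.

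Differences between lines were tested on the counts by edgeR's quasi-likelihood test over all genes, with Benjamini-Hochberg adjustment and an adjusted p under 0.05 counted as a call. Counts were scaled between libraries by the trimmed mean of M-values (TMM). The test kept 4 of the 8 members, MT2A, MT1E, MT1X and MT1F, and dropped the other 4 for low counts. Both resistant lines were compared with the same 3 MHCC97L libraries, so these comparisons are not independent. As RNA was taken from whole cultures, more RNA per cell and more cells with the RNA cannot be told apart.

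In MHCC97L-Oxa, MT1F and MT1X were higher than in MHCC97L. MT1F was at 2.11, 2.74 and 2.17 TMM-normalized CPM in MHCC97L and at 11.1, 10.1 and 10.3 in MHCC97L-Oxa, a log2 fold change of 2.17 ± 0.37 (SE) with an adjusted p of 0.0414 by edgeR's test. MT1X was at 41.6, 63.1 and 60.1 in MHCC97L and at 136, 131 and 150 in MHCC97L-Oxa, a log2 fold change of 1.34 ± 0.23 with an adjusted p of 0.0414. On this scale MT1F rose 4.50-fold and MT1X 2.53-fold in the mean. By FPKM the mean in MHCC97L-Oxa was 3.08 times that of MHCC97L for MT1F and 2.38 times for MT1X. MT2A was at 292, 381 and 413 TMM-normalized CPM in MHCC97L and at 550, 599 and 665 in MHCC97L-Oxa. The groups did not overlap, but the log2 fold change of 0.74 (95% confidence interval 0.26 to 1.22) did not pass, with an adjusted p of 0.154 by edgeR's test. DESeq2's Wald test called MT2A (adjusted p 0.0305), in a fit that called 893 of 12064 genes. MT1E had a log2 fold change of 0.00 (interval -0.59 to 0.59).

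Thus 2 of the 4 tested members were called, both higher, in a comparison in which 0.953% of the 12064 genes tested were called in either direction and 0.771% as higher. The median log2 fold change of the tested members was 1.04, against -0.19 over all genes tested. Both calls depended on which library was left out. Without MHCC97L replicate 3, or without any 1 of the 3 MHCC97L-Oxa libraries, neither member was called (adjusted p 0.155 to 0.279, edgeR), whereas the log2 fold changes were at least 2.12 for MT1F and 1.28 to 1.41 for MT1X. Each of these fits called only 2 of 12175 to 12242 genes, so the loss of calls was general and not particular to these members. With the replicate number as a block, MT1F and MT1X were not called either (edgeR's adjusted p 0.102 and 0.0596). The block fit called 92 of 12064 genes, against 115 in the main fit, so there the loss of calls was not general. Without MHCC97L replicate 1, the library with the strongest GC deviation, MT1F, MT1X and MT2A were all called, with edgeR's adjusted p of 0.00397, 0.00139 and 0.00974. That fit called 18.5% of all genes, 11.9% as higher. When MHCC97L replicate 2 was left out, all 3 were called as well (0.0121, 0.0126 and 0.0451, edgeR), in a fit that called 2705 of 12256 genes. With a correction for GC content and length the log2 fold changes were 1.70 for MT1F and 0.96 for MT1X, both called, and 0.04 for MT2A. The corrected fit called 1148 of 12064 genes.

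In MHCC97L-Src, none of the 4 tested members was called against MHCC97L, in a comparison with 2.13% of 12037 genes called by edgeR. At an unadjusted p, MT1F alone was under 0.05 (0.00336, edgeR). MT1F was at 6.39, 8.67 and 7.13 TMM-normalized CPM in MHCC97L-Src, above all 3 MHCC97L libraries, and its log2 fold change was 1.66 (95% confidence interval 0.71 to 2.60) with an adjusted p of 0.0822 by edgeR. DESeq2's Wald test called it (adjusted p 0.00174), as did edgeR with all 9 libraries in 1 fit (0.0103) and without MHCC97L replicate 2 (0.0131). In the same order, these fits called 2114 of 12037, 1956 of 12232 and 3419 of 12288 genes. On the FPKM scale the mean of MT1F was 1.93 times that of MHCC97L, against 3.16 times by TMM-normalized CPM. MT2A was at 340, 444 and 325 TMM-normalized CPM, MT1E at 161, 229 and 175, and MT1X at 51.3, 49.9 and 46.7, each overlapping MHCC97L. By FPKM, MT1X did not overlap, with 301 to 387 in MHCC97L and 251 to 291 in MHCC97L-Src, and it was not called there by limma-trend on log2(FPKM + 1), with an adjusted p of 0.286. The median log2 fold change of the 4 members was 0.06, against -0.16 over all genes tested. The intervals of their log2 fold changes were -0.51 to 0.57 for MT2A, -0.55 to 0.74 for MT1E and -0.76 to 0.45 for MT1X. The correction for GC content and length raised MHCC97L replicate 1 and lowered MHCC97L-Src replicate 2. The bias factors of MT2A in them, estimated over all 9 libraries, were 0.378 and 1.71. After the correction MT2A, MT1E and MT1X had log2 fold changes of -0.89, -0.69 and -0.60, with edgeR's adjusted p of 0.0599 to 0.0754.

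The resistant lines were then compared with each other. MT1X was lower in MHCC97L-Src than in MHCC97L-Oxa by a log2 fold change of -1.50 ± 0.12 (SE), with edgeR's adjusted p of 8.38e-05, and its mean was 2.82 times as high in MHCC97L-Oxa. MT2A was lower by -0.71 ± 0.14, with an adjusted p of 0.0167 by edgeR, a mean 1.63 times as high in MHCC97L-Oxa. MT1F had a log2 fold change of -0.51 (interval -0.95 to -0.07, adjusted p 0.187) and MT1E one of 0.09 (interval -0.24 to 0.42, adjusted p 0.784). Thus 2 of 4 tested members were called, both lower in MHCC97L-Src, in a comparison with 4.64% of 11994 genes called in either direction and 2.52% as lower. The median log2 fold change of the 4 was -0.61, against -0.02 over all genes tested. This comparison does not use the MHCC97L libraries. MT1X was called without any 1 library, whereas MT2A was not called without MHCC97L-Src replicate 1 (adjusted p 0.123), MHCC97L-Oxa replicate 2 (0.0943) or MHCC97L-Oxa replicate 3 (0.0960, all edgeR). In the same order, the fits that lost MT2A called 208, 167 and 231 genes in all, against 556 with every library.

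**Figure D3:**
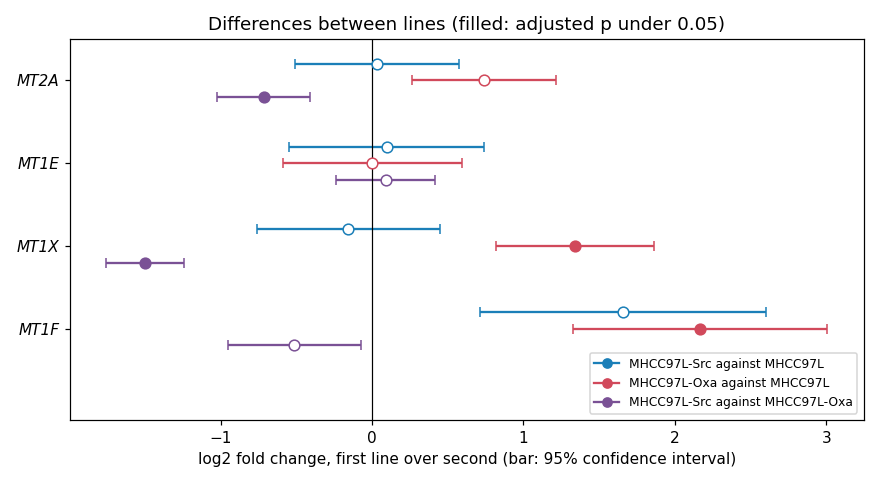
Log2 fold changes (horizontal axis, first line over second) of MT2A, MT1E, MT1X and MT1F in 3 comparisons, with 95% confidence intervals from edgeR and filled symbols for an adjusted p under 0.05. MT1X and MT1F were called in MHCC97L-Oxa against MHCC97L, and MT1X and MT2A between the resistant lines.

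A ratio of 2 members within a library does not depend on library size or normalization, and MT1E was used as the denominator. MT1E was chosen with its values in these libraries seen, and it moved by -0.69 and -0.57 (log2) against MHCC97L with the correction for GC content and length in MHCC97L-Src and MHCC97L-Oxa, so these ratios restate the differences of the other members without the scaling and are no independent evidence of them. MT1X had 0.359, 0.306 and 0.291 reads per MT1E read in MHCC97L. This ratio was 0.319, 0.219 and 0.266 for MHCC97L-Src, but 0.805, 0.798 and 0.765 for MHCC97L-Oxa. MT2A had 2.52, 1.85 and 1.99 reads per MT1E read in MHCC97L. For MHCC97L-Src this ratio was 2.11, 1.94 and 1.86, and for MHCC97L-Oxa 3.26, 3.66 and 3.38. Both ratios were higher in each MHCC97L-Oxa library than in any other library, and those of MHCC97L and MHCC97L-Src overlapped. MT1F had 0.0182, 0.0133 and 0.0105 reads per MT1E read in MHCC97L. MHCC97L-Src was at 0.0397, 0.0379 and 0.0407 and MHCC97L-Oxa at 0.0660, 0.0619 and 0.0525, so that the 3 lines did not overlap. With MT2A as the denominator, MT1X was at 0.143 to 0.165 in MHCC97L, 0.113 to 0.151 in MHCC97L-Src and 0.218 to 0.247 in MHCC97L-Oxa, so MHCC97L-Oxa was again above both. The exact permutation p was 0.5 for MHCC97L-Src against MHCC97L and 0.1 in the other comparisons.

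The exact two-sided permutation test over libraries gave p = 0.1 for each of the 3 ratios to MT1E in MHCC97L-Oxa against MHCC97L and between the resistant lines, the smallest p that 3 against 3 libraries allow. In MHCC97L-Src against MHCC97L it gave p = 0.1 for MT1F over MT1E, 0.3 for MT1X over MT1E and 0.7 for MT2A over MT1E in exact permutation tests. As 4 ratios were tested in 3 comparisons and none could go below 0.1, no adjusted value could pass. MT2A and MT1E have transcripts of like GC content, 63.0% and 59.5%, and the correction for GC content and length changed their ratio by a factor of 0.961 to 1.04 in every library. After this correction MT2A over MT1E was 1.93 to 2.56 for MHCC97L, 1.85 to 2.11 for MHCC97L-Src and 3.28 to 3.61 for MHCC97L-Oxa. MT1X over MT1E was then 0.238 to 0.322, 0.249 to 0.340 and 0.752 to 0.831 in the same order, and MT1F over MT1E 0.0114 to 0.0134, 0.0385 to 0.0501 and 0.0560 to 0.0634. MHCC97L-Oxa lay above the other lines for all 3 ratios to MT1E with and without the correction, whereas the ranges of MHCC97L and MHCC97L-Src overlapped for MT1X over MT1E and MT2A over MT1E in both.

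**Figure D4:**
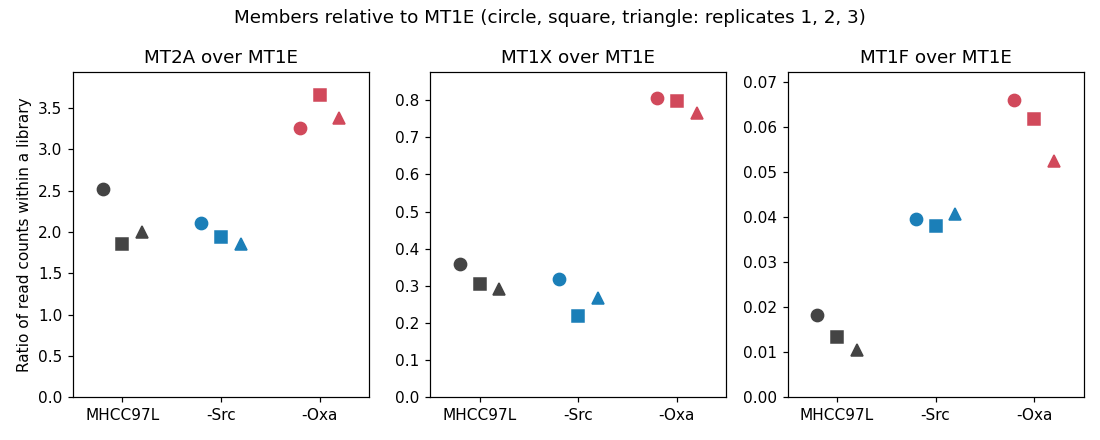
Read counts of MT2A, MT1X and MT1F divided by those of MT1E in the same library (vertical axes, each from 0) for MHCC97L, MHCC97L-Src (-Src) and MHCC97L-Oxa (-Oxa). Each symbol is 1 library, and the MHCC97L-Oxa libraries are highest in all 3 panels, at 3.26 to 3.66, 0.765 to 0.805 and 0.0525 to 0.0660.

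The family total of the 8 members was 8754, 11202 and 12246 counts in MHCC97L. The saracatinib-resistant line had 9447, 11207 and 10112, and the oxaliplatin-resistant line 15623, 16682 and 18313. As a share of all counted reads, this was 0.0496 to 0.0681% for MHCC97L, 0.0545 to 0.0660% for MHCC97L-Src and 0.0858 to 0.103% for MHCC97L-Oxa. In TMM-normalized CPM the total was 595 ± 126 (SD, n = 3), 615 ± 100 and 930 ± 81.7 in the same order. MHCC97L-Oxa was at 1.56 times the total of MHCC97L and did not overlap with it, whereas MHCC97L-Src was at 1.03 times and did. MHCC97L-Src was at 0.661 times the total of MHCC97L-Oxa. With the correction for GC content and length, the ratio to MHCC97L was 1.01 for MHCC97L-Oxa and 0.574 for MHCC97L-Src. The ratio of MHCC97L-Oxa to MHCC97L was 1.39 to 1.68 when each library was left out in turn. Reads shifted among the 8 members would leave this total as it is.

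The make-up of the total differed as well. In MHCC97L, MT2A gave 61.2 ± 3.18% (SD, n = 3) of the family's reads, MT1E 29.2 ± 3.09%, MT1X 9.23 ± 0.420% and MT1F 0.402 ± 0.0764%. In MHCC97L-Src the shares were 60.1 ± 1.21% for MT2A, 30.6 ± 1.53% for MT1E, 8.14 ± 1.19% for MT1X and 1.21 ± 0.0730% for MT1F. In MHCC97L-Oxa they were 65.0 ± 1.38%, 18.9 ± 0.726%, 15.0 ± 0.650% and 1.14 ± 0.139% in the same order. The share of MT1E, 18.1 to 19.5% in MHCC97L-Oxa, lay below that of every other library, and the share of MT1X, 14.5 to 15.7%, lay above. Over the 9 libraries, Pearson's r of log2 CPM was 0.94 between MT2A and MT1X. It was 0.66 between MT2A and MT1F and 0.61 between MT1X and MT1F, but 0.39, 0.21 and 0.16 between MT1E and MT2A, MT1F and MT1X, as a description of points that share lines and library effects.

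MTF1, the metal-sensing factor, was at 8.57 to 26.3 TMM-normalized CPM for MHCC97L, 6.32 to 11.5 for MHCC97L-Src and 8.54 to 8.97 for MHCC97L-Oxa, and it was not called in any comparison. SLC30A1, the zinc exporter of the plasma membrane and a known MTF1 target, was at 20.4 to 31.8, 12.1 to 22.2 and 19.7 to 20.7, with log2 fold changes of -0.71 (interval -1.56 to 0.14) in MHCC97L-Src and -0.39 (interval -1.05 to 0.27) in MHCC97L-Oxa. Of the 10 zinc exporters SLC30A1 to SLC30A10, 7 were tested and 0 called by edgeR in each of the 3 comparisons, and of the 14 zinc importers SLC39A1 to SLC39A14, 10 were tested and 0 called. As 2.13%, 0.953% and 4.64% of all genes were called in these comparisons, less than 1 call would fall in a list of 7 or 10 genes at the background share, and the counts of 0 say nothing particular about zinc transporters. The median log2 fold change of the exporters was -0.71 in MHCC97L-Src and -0.66 in MHCC97L-Oxa against MHCC97L, and that of the importers 0.01 and -0.10, beside -0.16 and -0.19 over all genes tested. When MHCC97L replicate 1 was left out, the exporter medians were -0.36 and -0.15 and the importer medians -0.06 and 0.03. Those over all genes tested were then -0.04 and 0.00. The importers with the most reads were SLC39A1 and SLC39A7. SLC39A1 had means of 353 ± 106 (SD, n = 3) TMM-normalized CPM for MHCC97L, 440 ± 97.1 for MHCC97L-Src and 363 ± 13.2 for MHCC97L-Oxa, and SLC39A7 of 298 ± 70.6, 336 ± 34.6 and 363 ± 2.28. Without MHCC97L replicate 1, the importers SLC39A10 in MHCC97L-Src (adjusted p 0.0489) and SLC39A3 in MHCC97L-Oxa (0.0407) were called lower by edgeR, named because they were the only zinc transporters called there.

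Of 14 metal- and oxidant-responsive genes (MTF1, the oxidant-sensing factor NFE2L2 and its targets, and heat shock genes), all were tested. In MHCC97L-Src the cystine importer SLC7A11 was lower than in MHCC97L, with a log2 fold change of -2.96 ± 0.47 (SE) and edgeR's adjusted p of 0.0199. In MHCC97L-Oxa the quinone reductase NQO1 was lower, by -1.28 ± 0.21 with an adjusted p of 0.0387. No other gene of this list was called against MHCC97L, and the list's medians were -0.76 and -0.98. These were 1 of 14 in each comparison, where 2.13% and 0.953% of all genes were called. MHCC97L replicate 1 had more reads of several of these genes than the other MHCC97L libraries, such as 19916 counts of TXNRD1 against 3658 and 4825. Without this library the medians were -0.72 and -0.63, against -0.04 and 0.00 over all genes tested. SLC7A11 and NQO1 were then called lower in MHCC97L-Src, 2 of 14 where 1.94% of all genes were called lower, and 9 of 14 were called lower in MHCC97L-Oxa, where 6.6% of all genes were. The NFE2L2 targets SLC7A11, NQO1, TXNRD1, GCLM, SRXN1 and HMOX1 were among these 9, and the rest were the heat shock genes HSPA1A, HSPA1B and DNAJB1. The NFE2L2 target GCLC was not called (adjusted p 0.103, edgeR). Between the resistant lines NQO1 was higher in MHCC97L-Src (0.55 ± 0.12, adjusted p 0.0248) and NFE2L2 lower (-0.67 ± 0.16, adjusted p 0.0392, both edgeR). Against MHCC97L, the called genes of this list were therefore lower in the resistant lines, and MT1X and MT1F higher in MHCC97L-Oxa. Of the 8 glucocorticoid receptor and responsive genes, 8 were tested and 0 called by edgeR in each comparison. At the background shares less than 1 call would fall in a list of 8 genes. The glucocorticoid genes with the most reads were DUSP1, a phosphatase that switches off MAP kinases, the clock gene PER1 and TSC22D3 (GILZ). DUSP1 had a mean of 654 ± 145 TMM-normalized CPM for MHCC97L, 1442 ± 148 for MHCC97L-Src and 1325 ± 77.3 for MHCC97L-Oxa, with adjusted p of 0.0628 and 0.0893 by edgeR. PER1 had means of 354 ± 88.7, 360 ± 63.8 and 371 ± 1.94 in the same order, and log2 fold changes of 0.03 and 0.07. TSC22D3 was at 103 to 166, 259 to 293 and 310 to 323 in the same order, with adjusted p of 0.0736 and 0.0519. Without MHCC97L replicate 1, DUSP1 and TSC22D3 were called higher by edgeR in both resistant lines (2 of 8 genes in MHCC97L-Src), and SGK1 also in MHCC97L-Oxa (3 of 8), where 3.58% and 11.9% of all genes were called higher.

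The protein-coding neighbours of the cluster were examined next. Within 500 kb, 12 protein-coding genes lie beside the cluster, of which 11 were tested against MHCC97L. In each resistant line 0 of them were called higher by edgeR and 1, SLC12A3, lower, where 2.13% of all genes were called in MHCC97L-Src and 0.953%, 0.771% as higher, in MHCC97L-Oxa. SLC12A3, the thiazide-sensitive sodium chloride cotransporter of the kidney, had 24, 34 and 24 counts in MHCC97L. It had 3, 0 and 0 for MHCC97L-Src and 1, 0 and 2 for MHCC97L-Oxa, with edgeR's adjusted p of 0.0441 and 0.0325. NUP93, a nuclear pore gene and the nearest neighbour after MT1X at 45909 bases, had log2 fold changes of -0.41 (interval -0.99 to 0.18) in MHCC97L-Src and -0.18 (interval -0.66 to 0.29) in MHCC97L-Oxa. BBS2, the nearest before MT2A at 87916 bases, had -1.13 (interval -2.57 to 0.30) and -0.63 (interval -1.95 to 0.70). OGFOD1 had -1.95 and -1.79, with edgeR's adjusted p of 0.111 and 0.188, and its MHCC97L libraries ran from 24.5 to 108 TMM-normalized CPM. Without MHCC97L replicate 1, SLC12A3 alone was called in MHCC97L-Src. In MHCC97L-Oxa 4 neighbours were then called higher and 3 lower, with 11.9% and 6.6% of all genes, and BBS2 turned to a log2 fold change of 0.50 (adjusted p 0.112, edgeR). Between the resistant lines, 10 neighbours were tested and 0 called by edgeR.

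**Figure D5:**
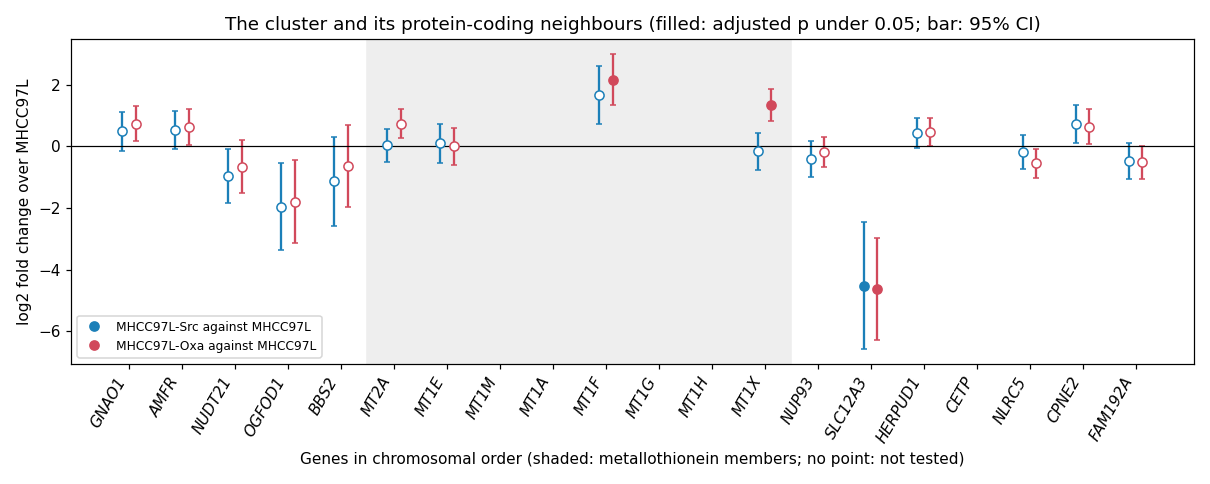
Log2 fold changes over MHCC97L (vertical axis) with 95% confidence intervals for MHCC97L-Src and MHCC97L-Oxa, with the metallothionein members (shaded) and the 12 neighbouring protein-coding genes in chromosomal order. Filled symbols have an adjusted p under 0.05 by edgeR: MT1F and MT1X are higher in MHCC97L-Oxa, and SLC12A3 is lower in both lines.

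The genes most like the family total were sought among the 10349 genes outside the family with a mean of at least 50 counts, by Pearson's r of log2 CPM over the 9 libraries. The 5 highest were LOXL2, a lysyl oxidase that cross-links matrix, the scaffold gene HOMER3, the cation channel gene TRPM4, IER5L and NOTUM, an extracellular inhibitor of Wnt proteins, with r from 0.971 to 0.981. LOXL2 had mean levels of 296, 310 and 555 TMM-normalized CPM in MHCC97L, MHCC97L-Src and MHCC97L-Oxa, and NOTUM of 4.89, 5.17 and 10.6. These values are a description of 9 libraries that share 3 lines, picked as the highest of many genes.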

How the data were processed

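RNA of 9 libraries, 3 for each line, was analysed. Per the labels, RNA was poly(A)-selected and stranded paired-end libraries were made. The submitters' processing notes name Trimmomatic 0.36, HISAT2 2.2.1.0 and GRCh38.p12. The counting program and the FPKM program are not given in the sources used here. The authors deposited raw read counts per gene and, separately, FPKM values.

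For each comparison its 6 libraries were fitted by edgeR (quasi-likelihood test), with filterByExpr (minimum count 10), TMM normalization and Benjamini-Hochberg adjustment at 0.05. SEs were obtained as log2 fold change over the root of edgeR's F. For levels, TMM factors were computed over all 9 libraries. Transcripts were those of GENCODE 29, and 19343 of 20030 genes matched. GC content and length were corrected by natural splines with 5 degrees of freedom as offsets. Floors of 3 counts reflect counting error alone, as the reads carry no molecular identifiers.

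Alternatives were DESeq2's Wald test, DESeq2 size factors, total counts, TMM without the 10 genes with the most counts, no filter, at least 10 counts in every library, a replicate block, all 9 libraries in one fit, GC and length offsets with and without the block, limma-trend on log2(FPKM + 1) and log2(FPKM + 0.1), and leaving out each library. For the lists of other genes, the fit without MHCC97L replicate 1 was chosen after seeing the data. On simulated counts, 200 of 200 changed genes were recovered in each comparison. The share of true differences that the fits recover in the real libraries was not tested. All 8 members were named. From the other lists up to 4 genes were named, those called with the smallest adjusted p or otherwise those with the most counts, along with MTF1, SLC30A1 and the nearest neighbours. More were named from the metal- and oxidant-responsive list, where every gene called lower in MHCC97L-Oxa without MHCC97L replicate 1 is given. The members and lists were chosen with earlier results of these data known. The R (4.3.3) packages were DESeq2 1.42.0, limma 3.58.1 and edgeR 4.0.16, and SciPy 1.17.1 and matplotlib 3.10.9 ran under Python 3.11.15.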

Additional observations from a re-analysis of the deposited data

Results flagged for a closer look

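The change of MT1X against MHCC97L differed between the resistant lines. Its log2 fold change was 1.34 in MHCC97L-Oxa and -0.16 in MHCC97L-Src, and the direct comparison of MHCC97L-Src with MHCC97L-Oxa gave -1.50, with edgeR's adjusted p of 8.38e-05 and no overlap between the libraries of the lines. MT2A differed in the same direction, with log2 fold changes of 0.74 and 0.03 against MHCC97L and -0.71 in the direct comparison, with edgeR's adjusted p of 0.0167. In all 3 MHCC97L-Oxa libraries both members were above all 3 MHCC97L-Src libraries. Groups of 3 libraries were not examined for outlying values.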

How the results depend on the processing

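In MHCC97L-Oxa against MHCC97L, 2 members were called in the main comparison. DESeq2's Wald test called 3, with MT2A added (adjusted p 0.0305), and 893 of 12064 genes in all. No member was called with the replicate number as a block (0 called, with edgeR's adjusted p of 0.102 for MT1F and 0.0596 for MT1X). The block fit called 92 of 12064 genes, against 115 in the main fit. When each library was left out, 0 to 3 were called, in fits that called 2 to 2705 genes in all. In MHCC97L-Src against MHCC97L, 0 members were called, but 1, MT1F, with DESeq2's Wald test and 1 with all 9 libraries in one fit, and 0 to 1 when each library was left out. Over all genes, these fits called 2114, 1956 and 22 to 3419 in the same order. Between the resistant lines 2 were called, 1 with all 9 libraries in one fit (MT2A adjusted p 0.220), and 1 to 2 when each library was left out. MT1X was called between the resistant lines under all 12 other alternatives and all 6 fits without 1 library. The ratio of the family total to MHCC97L fell with the correction for GC content and length to 1.01 in MHCC97L-Oxa and to 0.574 in MHCC97L-Src.

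The sign of small log2 fold changes turned in some settings. For MT2A in MHCC97L-Src it was -0.041 with total counts, -0.088 with limma-trend on log2(FPKM + 1) and on log2(FPKM + 0.1), -0.89 with the GC and length correction and -0.82 with this and the replicate block, and -0.088 to 0.13 when each library was left out. For MT1E it was -0.69 and -0.67 in MHCC97L-Src, -0.57 and -0.55 in MHCC97L-Oxa and -0.13 and -0.13 between the resistant lines, with the correction and with both. When each library was left out, MT1E ranged from -0.093 to 0.27, from -0.13 to 0.21 and from -0.082 to 0.19 in these comparisons, and MT1X in MHCC97L-Src from -0.28 to 0.0078. None of these was called. The cause was not tested.

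The deviations of libraries with the same replicate number correlated by -0.65 to 0.44. Their means were -0.09 in MHCC97L-Src against MHCC97L, 0.03 in MHCC97L-Oxa against MHCC97L and -0.12 between the resistant lines. For libraries with different numbers the means were 0.03, -0.02 and 0.06 in the same order. With 3 libraries per line, these values cannot tell whether the numbers pair the libraries. The correction for GC content and length rests on the GENCODE transcript of MT2A, which begins upstream of the RefSeq start, and for MT1F on a transcript of 416 bases. MT1F, at 39 to 47 counts in MHCC97L, had the widest intervals.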
